A study of Drosophila melanogaster with 6 samples.

Results

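The 4 Nplp (neuropeptide-like precursor) genes of Drosophila melanogaster, Nplp1, Nplp2, Nplp3 and Nplp4, were followed in the pupal eye at 40 h and 21 h after puparium formation (APF). They were taken by symbol and are 4 of the 17649 genes in the deposited table. Whole eyes of wild-type Canton S pupae were dissected at 40 h APF, when the lattice of the eye is complete, and at 21 h APF, when the eye is still being patterned. Each stage had 3 biological replicates, each from pooled eyes, so 6 libraries were sequenced, and no mutant, transgene or treatment was part of the comparison. The table gives 1 value per gene and stage, which the authors pooled over the replicates, in FPKM (a count of sequenced fragments scaled to the length of the transcript and to the size of the library). Because values of single replicates were not used here, the values below have no replicate error and the difference between stages was not tested.

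Neuropeptides are made as longer secreted precursors that convertases cut at basic residues and that further enzymes trim and amidate before release from dense core vesicles. The 4 Nplp genes were named from peptides found in extracts of fly nervous tissue, and they are not a family of related proteins. Nplp1 encodes a precursor of several peptides and marks a small set of peptidergic neurons in the ventral nerve cord, and 1 of its peptides acts through the receptor guanylate cyclase Gyc76C. The product of Nplp2 is also known as an immune-induced protein of the hemolymph and as an exchangeable apolipoprotein made mainly by the fat body. Nplp3 and Nplp4 encode short secreted proteins whose roles are less well known.

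In the annotation of the BDGP6 assembly (Ensembl release 115), Nplp1 (FBgn0035092) lay on chromosome 2R from 25032377 to 25040377, with 3 transcripts of 4 to 5 exons that encode proteins of 309 to 487 residues. Nplp2 (FBgn0040813 in the table) lay on chromosome 3L from 13356376 to 13357223, with 3 transcripts of 3 exons and proteins of 86 to 119 residues. Nplp3 (FBgn0042201) lay on chromosome 3L from 16318024 to 16318690, with 1 transcript of 2 exons and a protein of 90 residues. Nplp4 (FBgn0040717) lay on chromosome 2L from 2008414 to 2009072, with 2 transcripts of 2 exons and a protein of 64 residues. All 4 genes were on the plus strand. None shared exon bases with another annotated gene. The genes differed in size, with 2701 exon bases in Nplp1, 610 in Nplp2, 538 in Nplp3 and 528 in Nplp4. FPKM is scaled to length, and levels of the 4 genes are set side by side on that basis. How well the scaling holds for transcripts as short as those of Nplp2, Nplp3 and Nplp4 was not tested.

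Nplp3 was the gene with the largest difference between stages. It stood at 243 FPKM at 40 h APF, against 0.968 FPKM at 21 h APF. On the scale of FPKM + 0.1, used throughout for ratios, this was 227-fold higher at 40 h (log2 ratio 7.83). Nplp4 ran the other way, with 0.243 FPKM at 40 h APF, against 9.15 FPKM at 21 h APF, which was 27.0-fold lower at 40 h (log2 ratio -4.75). Nplp1 had 4.43 FPKM at 40 h APF, against 2.69 FPKM at 21 h APF, a 1.62-fold higher value (log2 ratio 0.70). Nplp2 was low at both stages, with 0.171 FPKM at 40 h APF, against 0.344 FPKM at 21 h APF, and no fold is given for it because both values are under 1 FPKM.

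**Figure D1:**
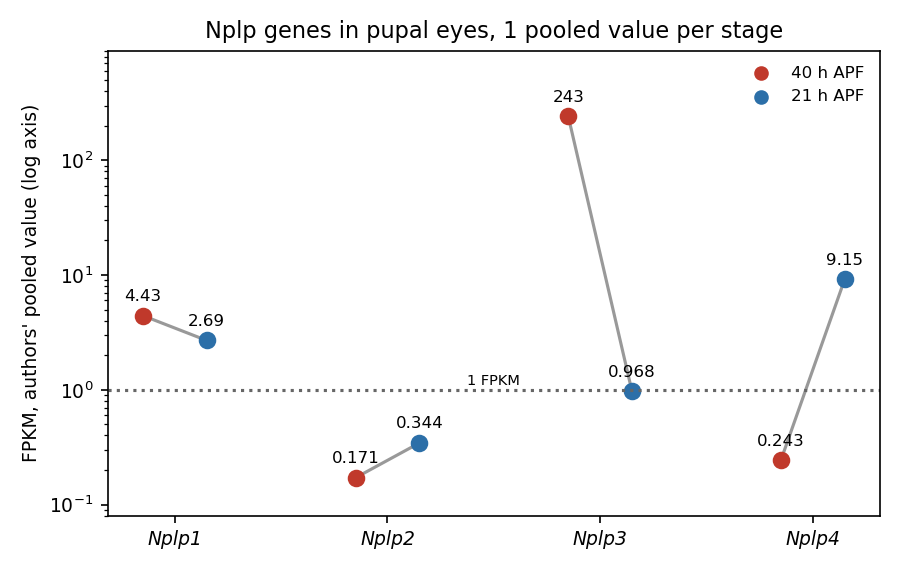
FPKM of each Nplp gene (log axis) at 40 h APF (red, left) and 21 h APF (blue, right), 1 pooled value per stage without error bars. Nplp3 is at 243 against 0.968 FPKM, Nplp4 at 0.243 against 9.15 FPKM, Nplp1 lies above the dotted line at 1 FPKM at both stages and Nplp2 lies below it at both.

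The order of the 4 genes therefore differed between stages. At 40 h APF the order of levels was Nplp3, Nplp1, Nplp4 and Nplp2, and at 21 h APF it was Nplp4, Nplp1, Nplp3 and Nplp2. Whether neighbours in either order differ beyond their spread could not be tested. The level of Nplp3 was 998 times that of Nplp4 at 40 h APF, against 0.106 times at 21 h APF. The 4 genes summed to 247 FPKM at 40 h APF, against 13.2 FPKM at 21 h APF. Of that sum, Nplp3 supplied 98.0% at 40 h APF, against 7.36% at 21 h APF, and Nplp4 supplied 0.0983% at 40 h APF, against 69.6% at 21 h APF. Nplp1 supplied 1.79% at 40 h APF, against 20.5% at 21 h APF.

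Across the whole table, 9828 genes reached at least 1 FPKM at one stage or the other, and their median log2 ratio was -0.017. Of these genes, 14.8% were at least 2-fold higher at 40 h and 10.7% were at least 2-fold lower. Nplp1, Nplp3 and Nplp4 were among the 9828 genes and Nplp2 was not. Of the 3, Nplp3 was at least 2-fold higher, Nplp4 was at least 2-fold lower and Nplp1 lay between. Nplp3 passed the 1 FPKM minimum only through its 40 h value and Nplp4 only through its 21 h value. Counted from the largest increase, Nplp3 ranked 52 of 9828, so that 0.529% of these genes had a log2 ratio as high or higher. Counted from the largest decrease, Nplp4 ranked 72, and 0.733% of the genes had a log2 ratio as low or lower. By level alone, Nplp3 ranked 337 of the 17649 genes at 40 h APF, against 9233 at 21 h APF. Nplp4 ranked 10842 at 40 h APF, against 6385 at 21 h APF, and Nplp1 ranked 7733 at 40 h APF, against 8150 at 21 h APF. Nplp2 ranked 11273 at 40 h APF, against 10338 at 21 h APF.

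**Figure D2:**
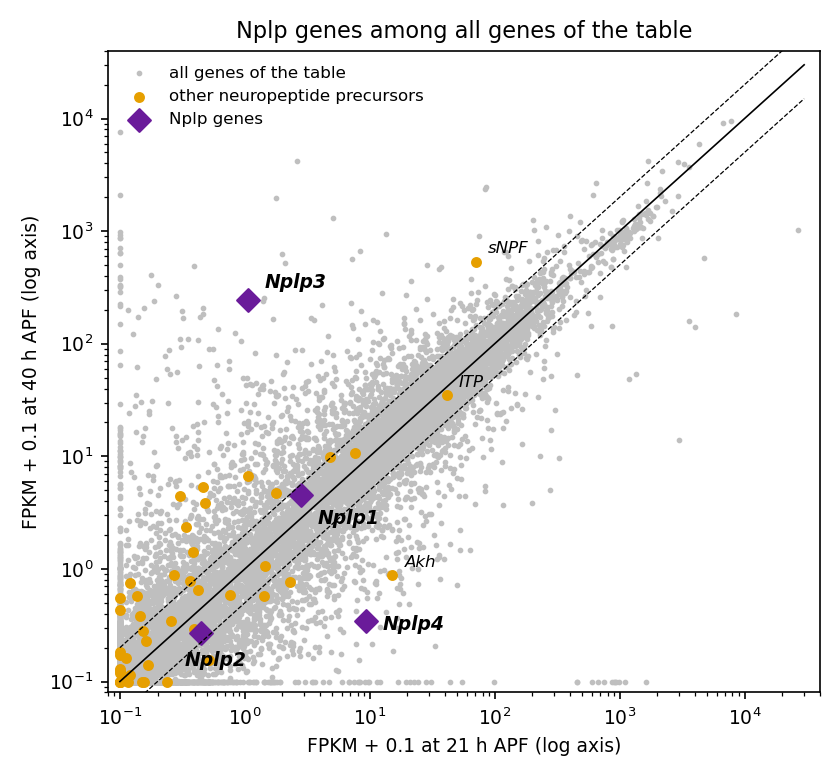
FPKM + 0.1 of every gene of the table at 40 h APF (vertical log axis) against 21 h APF (horizontal log axis), with the Nplp genes as purple diamonds and the 45 other neuropeptide precursors in orange. The solid line marks equal values and the dashed lines a 2-fold difference, and Nplp3 lies far above the lines, Nplp4 far below, and Nplp1 and Nplp2 between them.

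The genes nearest to each Nplp gene in level at both stages were found by the distance between log2(FPKM + 0.1) values, a likeness over 2 stage values only. Nearest to Nplp3 were CG2663, at a distance of 0.38, with 242 FPKM at 40 h APF and 1.29 FPKM at 21 h APF, and CG8420, at a distance of 0.43, with 254 FPKM at 40 h APF and 1.33 FPKM at 21 h APF. The next was Hr4, a nuclear receptor gene of the ecdysone response, at a distance of 0.85, with 167 FPKM at 40 h APF and 1.59 FPKM at 21 h APF. Only CG2663 and CG8420 lay within a distance of 0.5 of Nplp3, and likewise only CG14661 and CG7365 lay within 0.5 of Nplp4. CG14661 had 0.327 FPKM at 40 h APF and 7.68 FPKM at 21 h APF, and CG7365 had 0.204 FPKM at 40 h APF and 12.0 FPKM at 21 h APF. After these in likeness to Nplp4 came Gyc32E, a receptor guanylate cyclase gene, with 0.313 FPKM at 40 h APF and 13.5 FPKM at 21 h APF. Nplp1 lay in a crowded range, with 148 genes within 0.5. The nearest was kn, at a distance of 0.049, with 4.28 FPKM at 40 h APF and 2.71 FPKM at 21 h APF, followed by the noncoding genes CR46133 and CR45895. Nplp2 is under 1 FPKM at both stages, so no gene past that minimum could lie close to it, and its likeness was not read.

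Few abundant genes were as low at the other stage as Nplp3 was. At 40 h APF, 938 genes had at least 100 FPKM, and 40 of them, Nplp3 included, were under 1 FPKM at 21 h APF. Of the 7417 genes with at least 5 FPKM at 21 h APF, 107, Nplp4 included, were under 1 FPKM at 40 h APF. These limits were set after the values of the 2 genes were known, so the counts describe the table and test nothing.

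The other neuropeptide and peptide hormone precursors gave a mixed picture, with more genes higher at 40 h at the minimum of 1 FPKM. Of 45 genes listed, 15 reached 1 FPKM at either stage, and 9 of these were at least 2-fold higher at 40 h, 3 at least 2-fold lower and 3 within 2-fold, beside 14.8% higher and 10.7% lower over all expressed genes. The median log2 ratio was 1.42 for the 15 genes, against -0.017 over all expressed genes. Of the 9 that were higher, 6 were under 1 FPKM at 21 h APF, and the 3 that were lower were all under 1 FPKM at 40 h APF. Such genes passed the minimum only through the stage where they were high, and the counts and median rest in part on them. Over the whole table this held for 544 of the 1450 higher genes and 451 of the 1053 lower ones. With a minimum of 10 FPKM, 1 precursor was higher and 1 was lower. The most abundant was sNPF, the precursor of short neuropeptide F, with 535 FPKM at 40 h APF, against 70.1 FPKM at 21 h APF (log2 ratio 2.93). At 40 h APF Nplp3 stood below sNPF and above every other precursor of the list, the next being ITP, the ion transport peptide gene, with 34.9 FPKM at 40 h APF, against 41.1 FPKM at 21 h APF. The log2 ratio of Nplp3 exceeded that of each of the 15 genes, of which AstA, the allatostatin A precursor, had the highest, with 4.31 FPKM at 40 h APF, against 0.205 FPKM at 21 h APF (log2 ratio 3.86). Next were Dsk, the drosulfakinin precursor, with 5.22 FPKM at 40 h APF, against 0.362 FPKM at 21 h APF (log2 ratio 3.53), and Capa, with 3.74 FPKM at 40 h APF, against 0.383 FPKM at 21 h APF (log2 ratio 2.99). The lowest ratio of the list, less extreme than that of Nplp4, was that of Akh, the adipokinetic hormone gene, with 0.786 FPKM at 40 h APF, against 14.9 FPKM at 21 h APF (log2 ratio -4.09). The ecdysis triggering hormone gene ETH had 0.671 FPKM at 40 h APF, against 2.19 FPKM at 21 h APF, and SIFa had 0.475 FPKM at 40 h APF, against 1.32 FPKM at 21 h APF. The remaining 30 precursors were under 1 FPKM at both stages, as Nplp2 was, and Crz, Trissin, Ilp5 and Gpa2 were listed at 0 at both.

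**Figure D3:**
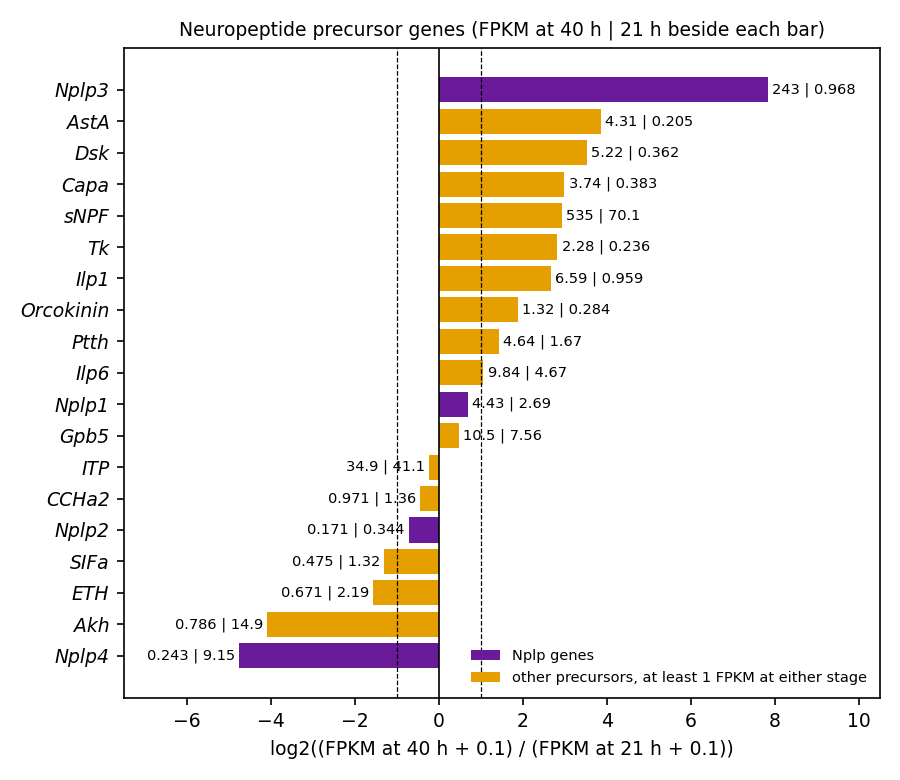
Log2 ratio of FPKM + 0.1 at 40 h over 21 h APF for the 4 Nplp genes (purple) and the 15 other precursors with at least 1 FPKM at either stage (orange), with FPKM at 40 h and 21 h beside each bar and dashed lines at a 2-fold difference. Nplp3 (7.83) and Nplp4 (-4.75) are at the ends of the ordered bars, and the bar of Nplp2 rests on values under 1 FPKM.

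A list of 17 genes covered the cutting, amidation and release of peptides, with the regulator dimm added. In it, 15 genes reached 1 FPKM, 1 was at least 2-fold higher at 40 h and 1 was at least 2-fold lower. The other 13 were within 2-fold, as were 74.5% of all expressed genes, and the median log2 ratio of the 15 was 0.30. The prohormone convertase gene amon had 16.2 FPKM at 40 h APF, against 18.4 FPKM at 21 h APF. The carboxypeptidase gene svr had 88.6 FPKM at 40 h APF, against 50.4 FPKM at 21 h APF, and the amidating enzyme gene Phm had 46.4 FPKM at 40 h APF, against 42.8 FPKM at 21 h APF. Transcripts of these 3 enzymes were thus measured at both stages. Syt4, a synaptotagmin gene and the most abundant of the list, had 150.2 FPKM at 40 h APF, against 121.9 FPKM at 21 h APF. The gene higher by at least 2-fold was IA-2, which encodes a phosphatase-like protein of dense core vesicles, with 4.95 FPKM at 40 h APF, against 1.64 FPKM at 21 h APF. The gene lower by at least 2-fold was Sytbeta, with 1.23 FPKM at 40 h APF, against 35.9 FPKM at 21 h APF (log2 ratio -4.76). The peptidergic cell regulator dimm stayed under 1 FPKM at both stages, with 0.203 FPKM at 40 h APF and 0.0809 FPKM at 21 h APF.

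Among 41 peptide receptor genes, 21 reached 1 FPKM, and 12 were at least 2-fold higher at 40 h, 1 was at least 2-fold lower and 8 were within 2-fold, beside 14.8% higher and 10.7% lower over all expressed genes. Their median log2 ratio was 1.44, against -0.017 over all expressed genes. Of the 12, 9 were under 1 FPKM at 21 h APF, so they passed the minimum only through their 40 h values. Over the whole table this held for 544 of the 1450 genes that were higher. The count and the median of the receptors rest in part on such genes. With a minimum of 10 FPKM, 1 receptor gene was higher and 1 was lower. Gyc76C, the receptor for an Nplp1 peptide, was within 2-fold, with 2.63 FPKM at 40 h APF, against 4.42 FPKM at 21 h APF (log2 ratio -0.73), while Nplp1 itself had the opposite sign. TkR99D, a tachykinin receptor gene, was the most abundant receptor at 40 h, with 24.2 FPKM at 40 h APF, against 4.98 FPKM at 21 h APF. MsR2, a myosuppressin receptor gene, had 3.34 FPKM at 40 h APF, against 0.0594 FPKM at 21 h APF, and FMRFaR had 6.62 FPKM at 40 h APF, against 0.325 FPKM at 21 h APF. CCHa2-R was the receptor gene lower by at least 2-fold, with 0.734 FPKM at 40 h APF, against 17.8 FPKM at 21 h APF.

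**Figure D4:**
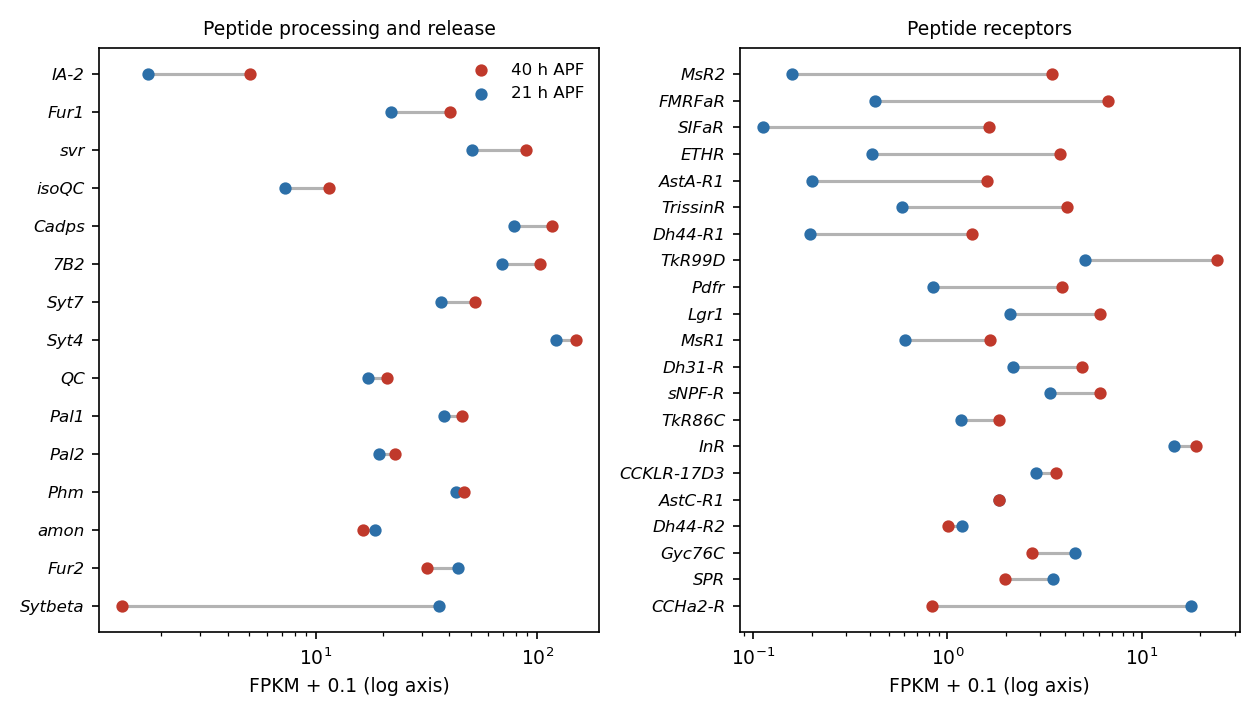
FPKM + 0.1 (log axis) at 40 h APF (red) and 21 h APF (blue) for the 15 peptide processing and release genes and the 21 peptide receptor genes with at least 1 FPKM at either stage, ordered by their ratio. Most processing genes lie at similar levels at both stages, Sytbeta excepted. At 40 h, 12 receptor genes are at least 2-fold higher, 9 of them under 1 FPKM at 21 h.

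For Nplp1, transcription regulators linked to the fate of its neurons in the nerve cord, whether they promote or restrict it, were set beside it. Of kn, ap, eya, dimm, sqz and nab, 5 reached 1 FPKM. The COE factor gene kn had 4.28 FPKM at 40 h APF, against 2.71 FPKM at 21 h APF, and the LIM homeobox gene ap had 32.7 FPKM at 40 h APF, against 19.5 FPKM at 21 h APF. The eye determination gene eya had 136 FPKM at 40 h APF, against 175 FPKM at 21 h APF, and sqz had 6.14 FPKM at 40 h APF, against 7.84 FPKM at 21 h APF. The one gene outside 2-fold was nab, with 0.0850 FPKM at 40 h APF, against 15.4 FPKM at 21 h APF (log2 ratio -6.39). In whole eyes, fewer cells of a type and less RNA per cell cannot be told apart, for these genes and for the Nplp genes alike.

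For Nplp2, genes of lipid transport and of the fat body were set beside it. All 10 lipid transport genes reached 1 FPKM, 4 of them were at least 2-fold higher at 40 h and none was at least 2-fold lower, beside 14.8% higher and 10.7% lower over all expressed genes. The lipocalin genes GLaz and NLaz had 51.2 and 51.6 FPKM at 40 h APF, against 17.8 and 22.9 FPKM at 21 h APF. The lipid transfer particle gene Apoltp had 8.48 FPKM at 40 h APF, against 1.14 FPKM at 21 h APF, and the lipoprotein receptor gene LpR2 had 20.2 FPKM at 40 h APF, against 35.8 FPKM at 21 h APF. The 9 fat body markers summed to 46.5 FPKM at 40 h APF, against 64.9 FPKM at 21 h APF, with none at 0 and Yp1 and Yp2 under 1 FPKM at both. The one marker outside 2-fold was the yolk protein gene Yp3, with 6.71 FPKM at 40 h APF, against 2.56 FPKM at 21 h APF, and the storage protein gene Lsp2 had 14.5 FPKM at 40 h APF, against 28.5 FPKM at 21 h APF. Fat body markers were measured at both stages, and Nplp2 stayed under 1 FPKM. Whether the cells that carried these markers could make Nplp2 was not tested.

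The labelled tissue was checked by its markers, and other cell types that a dissected eye could hold were read in the same way. The 5 photoreceptor markers all reached 1 FPKM and summed to 429 FPKM at 40 h APF, against 717 FPKM at 21 h APF. Of these, chp was at least 2-fold lower, with 164 FPKM at 40 h APF, against 370 FPKM at 21 h APF, and Hdc, the histamine synthesis gene, was at least 2-fold higher, with 2.76 FPKM at 40 h APF, against 0.317 FPKM at 21 h APF. The neuronal gene elav had 89.6 FPKM at 40 h APF, against 84.9 FPKM at 21 h APF, and gl and futsch were also within 2-fold. The 4 matched cone and pigment cell markers summed to 407 FPKM at 40 h APF, against 256 FPKM at 21 h APF. The gene w had 325 FPKM at 40 h APF, against 137 FPKM at 21 h APF, while ct, pros and sv were within 2-fold. Of the 4 corneal lens genes, 3 were at least 2-fold higher and 1 at least 2-fold lower. Cpr66D had 77.1 FPKM at 40 h APF, against 0.129 FPKM at 21 h APF, and Crys 15.8 against 33.9 FPKM. Markers of neurons with other transmitters than that of photoreceptors summed to 64.0 FPKM at 40 h APF, against 24.3 FPKM at 21 h APF. None of these 8 markers was at 0, 6 reached 1 FPKM and 4 of the 6 were at least 2-fold higher. Glial markers summed to 322 FPKM at 40 h APF, against 181 FPKM at 21 h APF, with 4 of 6 at least 2-fold higher, while repo, their defining transcription factor, had 40.4 FPKM at 40 h APF, against 40.5 FPKM at 21 h APF. For all the marker lists, the share over all expressed genes was 14.8% at least 2-fold higher and 10.7% at least 2-fold lower. The 7 hemocyte markers summed to 96.8 FPKM at 40 h APF, against 34.7 FPKM at 21 h APF, with He listed at 0 at both stages and 5 of the 7 under 1 FPKM at both. Most of the difference lay in Pxn, with 53.4 FPKM at 40 h APF, against 1.92 FPKM at 21 h APF, and crq had 42.0 FPKM at 40 h APF, against 31.2 FPKM at 21 h APF. Tracheal markers summed to 278 FPKM at 40 h APF, against 311 FPKM at 21 h APF. Of these, trh and btl were under 1 FPKM at both stages. The largest part was obst-A, with 152 FPKM at 40 h APF, against 163 FPKM at 21 h APF. Muscle markers summed to 11.2 FPKM at 40 h APF, against 17.2 FPKM at 21 h APF. Mhc and bt were under 1 FPKM at both stages, and Mlc2 was within 2-fold. Among the muscle markers, Act57B was at least 2-fold lower, with 3.43 FPKM at 40 h APF, against 12.6 FPKM at 21 h APF, while up and wupA were at least 2-fold higher, with 1.72 and 1.53 FPKM at 40 h APF, against 0.0778 and 0.159 FPKM at 21 h APF. The part of these cell types in the values of Nplp1, Nplp3 and Nplp4 was not tested.

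Nplp3 lay next to genes that differed between the stages in both directions. The next gene on its side of lower coordinates, CG13062, 2.87 kb away and on the same strand, had 48.1 FPKM at 40 h APF, against 0.0930 FPKM at 21 h APF (log2 ratio 7.97). On the other side, CG13041, 0.263 kb away and on the opposite strand, had 0.352 FPKM at 40 h APF, against 2.32 FPKM at 21 h APF (log2 ratio -2.42), and CG13060, 1.17 kb away, was listed at 0 at 40 h APF, against 1.08 FPKM at 21 h APF. CG13041 and CG13060 overlap noncoding genes on the other strand, whose reads cannot be told apart where strand is not used. Of the 10 nearest genes of the table, 5 on each side, 3 reached 1 FPKM, with CG13062 at least 2-fold higher at 40 h and CG13041 and CG13060 lower. A wider window of 50 kb around the start of Nplp3, chosen after the values were seen, held 49 other genes, of which 22 reached 1 FPKM. Of the 22, 15 were at least 2-fold lower at 40 h, 4 were at least 2-fold higher and 3 were within 2-fold, with a median log2 ratio of -2.52. Over all expressed genes, 10.7% were at least 2-fold lower and 14.8% at least 2-fold higher. Of the lower genes, CG13068, CG13066, CG13050, CG13047, CG13041 and CG13060 were under 1 FPKM at 40 h APF. Of the higher ones, CG13062 and Cpr72Ec were under 1 FPKM at 21 h APF. These genes passed the minimum only through the stage where they were high. Over the whole table this held for 451 of the 1053 lower genes and 544 of the 1450 higher ones. The 4 higher genes were CG13062, the corneal lens genes retinin and Cpr72Ec, and ringer, a microtubule regulator gene. The gene retinin had 9.37 FPKM at 40 h APF, against 4.26 FPKM at 21 h APF, Cpr72Ec had 11.5 FPKM at 40 h APF, against 0.614 FPKM at 21 h APF, and ringer had 223 FPKM at 40 h APF, against 63.5 FPKM at 21 h APF. With 0.1 FPKM added, Nplp3 and CG13062 both stood above 7 on the log2 scale, in a stretch where most expressed genes were lower at 40 h. The 21 h value of CG13062, 0.0930 FPKM, is under the amount added, so the size of its ratio depends on that setting. With a pseudocount of 1 FPKM the log2 ratio of Nplp3 was 6.95.

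**Figure D5:**
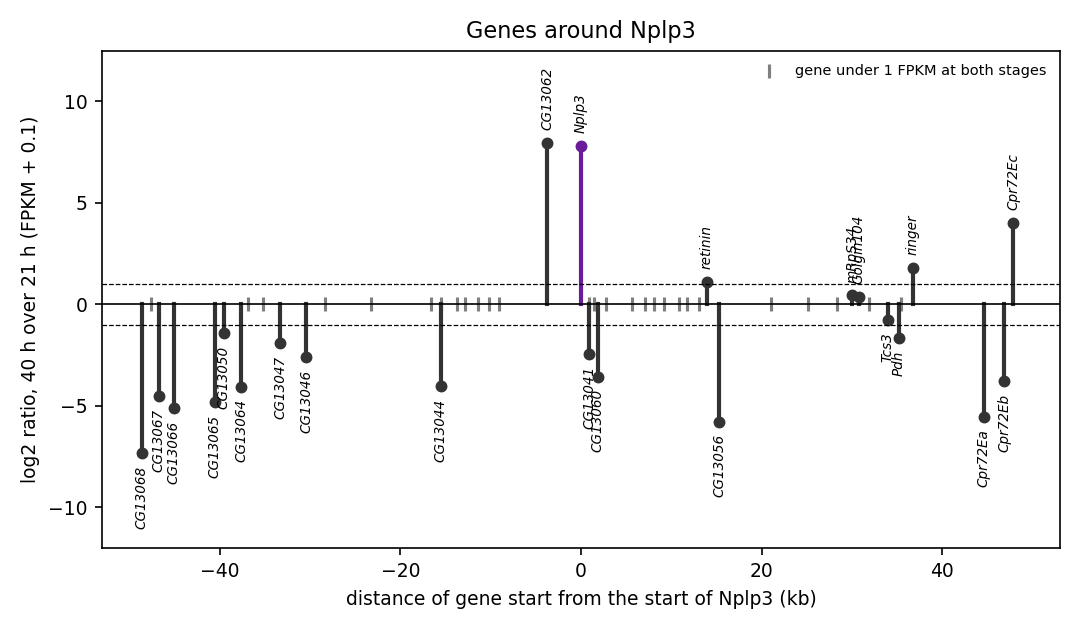
Log2 ratio of FPKM + 0.1 at 40 h over 21 h APF for the genes within 50 kb of Nplp3, by the distance of their start from that of Nplp3 in kb, with dashed lines at a 2-fold difference and grey ticks for genes under 1 FPKM at both stages. Nplp3 (purple, 7.83) and CG13062 (7.97) stand side by side, and 15 of the 22 other genes with at least 1 FPKM are at least 2-fold lower, beside 10.7% of all expressed genes.

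Around Nplp4, 4 of the 10 nearest genes reached 1 FPKM, 2 were at least 2-fold lower at 40 h and none was at least 2-fold higher. Over all expressed genes, 10.7% were lower and 14.8% higher by that fold, and counts this small were not tested. CG15353, 1.22 kb away on the side of lower coordinates, had 0.384 FPKM at 40 h APF, against 20.3 FPKM at 21 h APF (log2 ratio -5.40), a difference of the same direction as that of Nplp4. CG33543, 2.10 kb away on the same side, had 14.4 FPKM at 40 h APF, against 18.3 FPKM at 21 h APF. The nearest protein-coding gene on the other side, CG4238, had 5.79 FPKM at 40 h APF, against 5.65 FPKM at 21 h APF.

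Around Nplp1, 5 of the 10 nearest genes reached 1 FPKM, with 2 at least 2-fold higher at 40 h and 1 at least 2-fold lower. The shares over all expressed genes were 14.8% higher and 10.7% lower. The gene just before it, uzip, which encodes a cell adhesion protein, ends 0.639 kb away and had 118 FPKM at 40 h APF, against 45.6 FPKM at 21 h APF (log2 ratio 1.37). The gene just after it, the Pax transcription factor gene gsb-n, had 0.0816 FPKM at 40 h APF, against 0.0794 FPKM at 21 h APF. Nplp1 thus lay between an abundant gene and one close to 0. Also on the side of gsb-n, gol had 58.0 FPKM at 40 h APF, against 25.8 FPKM at 21 h APF. On the side of uzip, zip, the gene for the heavy chain of nonmuscle myosin, had 136 FPKM at 40 h APF, against 116 FPKM at 21 h APF, and emp had 27.0 FPKM at 40 h APF, against 58.7 FPKM at 21 h APF.

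Around Nplp2, 2 of the 10 nearest genes reached 1 FPKM and both were at least 2-fold higher at 40 h, beside 14.8% over all expressed genes. CG14107, 23.1 kb away, had 185 FPKM at 40 h APF, against 0.363 FPKM at 21 h APF, and ImpL1, 25.5 kb away, an ecdysone-inducible gene, had 4162 FPKM at 40 h APF, against 2.53 FPKM at 21 h APF. The other 8 were under 1 FPKM at both stages, as Nplp2 was, and 5 of them were listed at 0 at both.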

How the data were processed

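RNA of whole Canton S pupal eyes was sequenced at 40 h and 21 h APF, 3 libraries per stage, grouped by GEO's labels. The authors aligned reads with bowtie2 to BDGP6 (Ensembl release 93) and made the deposited FPKM values with Cuffdiff, using geometric normalization and bias correction, pooled to 1 value per gene and stage. Versions are not given in the sources used here, nor whether reads were counted by strand. The deposited fold changes, p-values, q-values and significance calls, the authors' own comparison, were not used. The table holds no counts or library depths. The study reports the mapped reads of each library, which were not used here, and no test, interval or detection limit is given.

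Ratios are log2((FPKM at 40 h + 0.1)/(FPKM at 21 h + 0.1)). Genes with at least 1 FPKM at either stage were counted as expressed and at 2-fold as different. Of the table's IDs, 17512 occur in Ensembl release 115 on BDGP6, from which positions were read, and 50 more, Nplp2 among them, were matched by symbol. Of the listed genes 1, a cone and pigment cell marker, was not matched and Apoltp was matched by synonym. Genes to name were drawn from the 4 members, neighbours with at least 10 FPKM and the 3 genes nearest in level. From each list they were up to 3 genes with the largest ratio each way and the most abundant. Not all of these are named in the text, and other genes were named after their values were seen. Members and lists were chosen with earlier results of these data known. The counting step was tested on simulated data with known folds. Alternatives were other pseudocounts, minimums, folds and scalings, and leaving out genes at shared loci. Python 3.11.15, numpy 2.4.6, pandas 2.3.3 and matplotlib 3.10.9 were used.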

Additional observations from a re-analysis of the deposited data

How the results depend on the processing

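With pooled values and no counts per gene, neither replicate spread nor counting error is known for any ratio. A value is given below where it moved by over 1.5 times. Of 96 alternative values, 65 moved by less and 31 by more. The 16 of them that are log2 ratios of Nplp genes kept their sign, and the other 80 are counts of genes. No paired analysis was possible because the deposited columns hold 1 pooled value per stage, and leaving out each replicate was not run for the same reason. With a pseudocount of 1 FPKM the log2 ratio was 6.95 for Nplp3 and -3.03 for Nplp4, and 1 neuropeptide precursor was lower. With a minimum of 10 FPKM, 871 genes were higher and 465 lower in all, with 1 precursor higher and 1 lower, 0 processing genes higher and 1 receptor higher. With no minimum, 1678 genes were lower in all, with 16 precursors higher and 5 lower, 2 processing genes higher and 2 receptors lower. At 1.5-fold, 2219 genes were higher and 1835 lower in all, with 4 processing genes higher, 3 receptors lower and 1 lipid transport gene lower. At 4-fold, 741 were higher and 458 lower in all, with 1 precursor lower, 0 processing genes higher and 1 lipid transport gene higher. Without genes that share their locus in the table with another gene, 689 were higher and 565 lower in all, with 4 precursors higher and 1 lower, 0 processing genes higher, 0 lower, and 0 receptors lower. Each Nplp gene has its own locus in the table.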
